A study of Mus musculus with 6 samples.

Results

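The genes described here are 32 interferon-stimulated genes and regulators of the interferon response, read in sorted bone marrow erythroblasts of P38α+/- and P38α-/- mice. They were taken by gene name from the non-control probes of 6 Agilent mouse genome arrays, where they are 32 of 34821 named genes. By role, 6 are sensors of foreign nucleic acid or helpers of one, 4 are transcription factors and 22 are effectors. They have 40 probes, of which 30 probes of 27 members were tested, among 14149 tested genes. A probe is called detected on an array where the scanner software marked it as well above background, and it was tested where all 3 arrays of at least 1 genotype detected it.

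Each array held 10 ng of RNA from CD71high Ter119+ erythroblasts of 1 mouse, with 3 mice per genotype. Both genotypes were on the C57Bl/6 background and carried Mx1-Cre, the P38α+/- mice with 1 floxed P38α allele (Mx1-Cre/P38α fl/+) and the P38α-/- mice with both (Mx1-Cre/P38α fl/fl). All received 3 injections of PolyIC at 6 to 8 weeks of age to induce Cre, then rested for 6 weeks. All were then made anemic by phenylhydrazine (PHZ), which lyses red cells, and erythroblasts were sorted on day 4 of recovery.

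PolyIC is a synthetic double-stranded RNA that cells read as a sign of viral infection. It is bound by Tlr3 in endosomes and by the cytoplasmic sensors Ifih1 and Ddx58, which signal through Mavs and interferon regulatory factors to the genes of type I interferon. Interferon binds Ifnar1 and Ifnar2, activates Jak1 and Tyk2, and sends a complex with Stat2 and Irf9 to the promoters of interferon-stimulated genes. Mx1 is one of these genes, so the Mx1-Cre transgene is switched on by the same signal in many interferon-responsive cell types, and the P38α+/- controls went through it too. No array came from a mouse without PolyIC or before it, so the values compare genotypes weeks after PolyIC and measure no effect of PolyIC itself. C57Bl/6 mice are known to carry a defective Mx1 gene, which bears on the reading of that member.

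The complex with Stat2 and Irf9 binds the interferon-stimulated response element, whose core is a pair of GAAA repeats. The reference table of RefSeq promoters (GRCm38.p6, 250 bases before to 50 after each start, gene strand) held 23 of the 32 members. The core GAAANNGAAA, searched on both strands, was in at least 1 promoter of 14 of these 23 genes (60.9%), against 3.99% of all 27025 genes in the table. The core TTCNNNGAA of the gamma-activated site, a palindrome of the interferon gamma response, was in 6 of the 23 (26.1%), against 9.55% of all genes, and overlap of the 2 motifs was allowed. Promoters were shown for 6 members whose values differ most in kind: Oas1a and Bst2, which read lower on every P38α-/- array, Oas3, which read higher on every one, and Isg15, Rsad2 and Ifit1, whose genotypes overlapped. Each run is 60 bases upstream of the start, 5′ to 3′ on the gene's strand, with the core in capitals (TTTCNNTTTC is the core read on the other strand).
Oas1a, chr5:120907526-120907585, minus strand: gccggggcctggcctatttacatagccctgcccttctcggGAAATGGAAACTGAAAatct
Bst2, chr8:71537565-71537624, minus strand: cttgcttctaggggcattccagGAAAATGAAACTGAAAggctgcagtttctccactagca
Oas3, chr5:120777700-120777759, minus strand: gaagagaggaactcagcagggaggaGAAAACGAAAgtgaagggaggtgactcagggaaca
Isg15, chr4:156200856-156200915, minus strand: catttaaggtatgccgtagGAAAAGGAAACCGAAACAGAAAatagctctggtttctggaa
Rsad2, chr12:26456538-26456597, minus strand: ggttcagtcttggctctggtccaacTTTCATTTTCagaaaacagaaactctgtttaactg
Ifit1, chr19:34640769-34640828, plus strand: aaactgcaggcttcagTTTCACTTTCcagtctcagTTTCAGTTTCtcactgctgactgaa

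Every value below is a log2 signal minus its array's 75th percentile over the 15527 probes that all 6 arrays detected, and each log2 fold change is P38α-/- minus P38α+/-. A gene was called changed at a limma adjusted p of at most 0.05, adjusted over all 18769 tested probes, with a fold of at least 2. Over all tested probes the median log2 fold change was -0.16. An array detected between 28.9% of the probes (P38α-/- replicate 1) and 53.0% (P38α+/- replicate 1). Mapk14, the gene of P38α, was not lower on the arrays labelled P38α-/-: its brighter probe (chr17:28885290-28885349, mm9) read 0.32, 0.58 and 0.60 in P38α+/- and 0.75, 1.19 and 1.20 in the arrays labelled P38α-/-. Its dimmer probe differed by 0.01, and the sources do not say which part of the gene the floxed alleles remove. After PolyIC, the study found the locus excised and the protein absent in sorted P38α-/- erythroblasts, by genomic PCR and immunoblot. Genotypes below are those of the labels.

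Among the 27 tested members, 12 read lower on all 3 P38α-/- arrays than on all 3 P38α+/- arrays, 1 read higher on all 3, and 14 overlapped. Over all 14149 tested genes, 19.6% read lower without overlap and 7.44% higher. The 12 were the OAS family genes Oas1a, Oas2, Oasl1 and Oasl2, the effectors Rtp4, Ifi27l2a, Bst2 and Ifit2, and the sensors Ddx58, Dhx58, Ifih1 and Eif2ak2, and the 1 was Oas3. Of the 12, Rtp4 and Ddx58 were tested through the P38α+/- arrays alone, as 2 of 3 P38α-/- arrays detected each. Only Rtp4 was called, against 27 called genes (0.191%) over the whole array, of which 6 were lower (0.0424%). Without the adjustment, 9 members had a p of at most 0.05 and a fold of at least 2 downward, against 7.59% of all tested genes. The median log2 fold change of the 27 was -0.47, with 15 members below the median of all tested probes, -0.16, and 12 above it.

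The count of 12 depended on the scaling of the arrays. With the 75th percentile taken over all probes, dim ones included, 7 members read lower without overlap, against 4.82% of all genes, and the median of the members was 0.01 while that of all tested probes moved from -0.16 to 0.32. Dhx58, Ifi27l2a, Oas1a, Oasl1, Oasl2 and Rtp4 read lower without overlap under this scaling, quantile normalization, normexp background correction and the authors' own normalized values, as under the scaling used here. The share of all genes was 9.24% with quantile normalization, 8.75% with normexp and 9.74% in the authors' values, each taken alone. The share lower under all 5 was not counted, so these 6 have no value to stand beside. With 1 array left out the count was 12 to 14, and the share of all genes lower without overlap rose to 23.2% to 30.7%, since fewer arrays overlap less often. The count was 12 (23.2% of all genes) without P38α-/- replicate 3, and the highest share came without P38α+/- replicate 3.

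**Figure D1:**
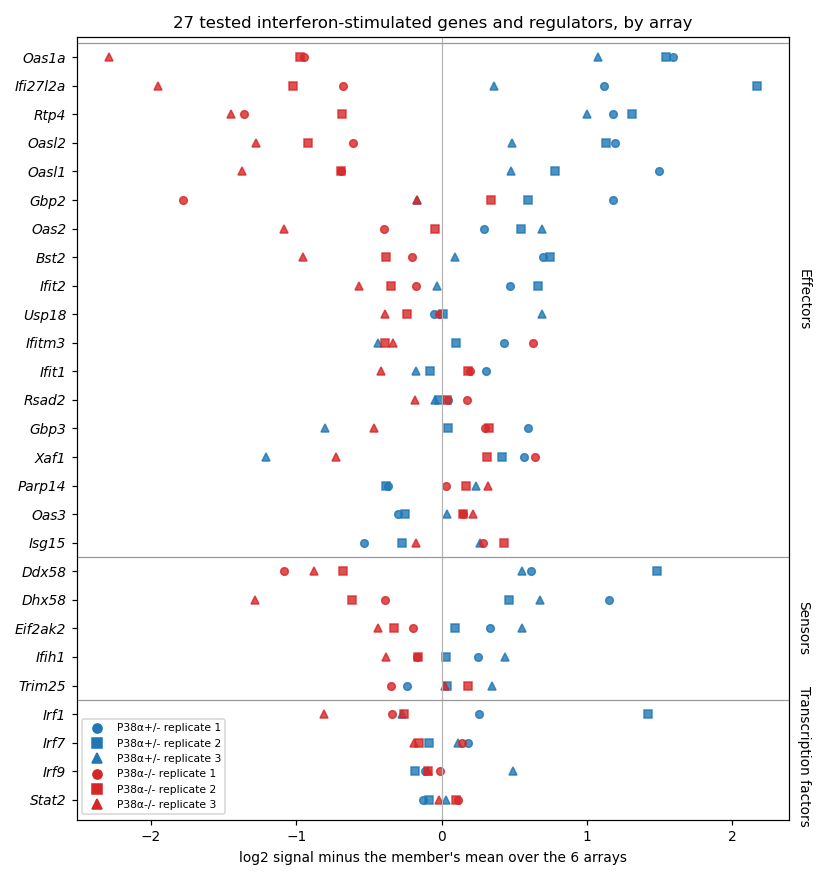
Each of the 27 tested members on a line, with its log2 signal on each array minus its own mean over the 6 arrays (horizontal axis); colour gives the genotype and shape the replicate number. Most of the upper effectors and the first 4 sensors separate by colour, while Isg15, Rsad2, Ifit1, Trim25 and the transcription factors mix the genotypes, and P38α-/- replicate 3 is the lowest P38α-/- array for 20 members.

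The arrays did not shift the members evenly. The mean over the 27 members was -1.50, -1.50 and -1.75 in the P38α+/- replicates 1, 2 and 3 and -2.20, -2.17 and -2.60 in the P38α-/- replicates. Replicate 3 was the lowest of its genotype for 15 members in P38α+/- and for 20 in P38α-/-. Arrays of the same replicate number deviated together over the 15527 probes that all 6 arrays detected, and were read as pairs. Within the pairs, 14 members read lower in P38α-/- in all 3, against 37.3% of all genes, and Oas3 and Parp14 read higher in all 3, against 17.3%.

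Genes of several other blood cell types read lower on the same arrays, and their part in these results was not tested. Of 12 neutrophil genes, such as S100a8, Mpo and Ly6g, all were tested and 10 read lower without overlap, against 19.6% of all tested genes. The list mean was 1.68, 2.35 and 0.85 in P38α+/- and 0.51, 0.32 and -0.14 in P38α-/-. Of the 8 B cell genes, 4 were tested and 2 read lower without overlap, Ebf1 and Ms4a1, which were detected on all 3 P38α+/- arrays and on 0 P38α-/- arrays. Their P38α-/- levels are known only as bounds, and they were at least 3.48-fold and at least 2.94-fold lower. The medians were -0.98 over 8 of 12 monocyte and macrophage genes, -0.69 over 4 of 9 T and NK cell genes, and -1.02 over 7 of 7 plasmacytoid dendritic cell genes. The plasmacytoid dendritic cell list holds the member Bst2, whose own value is the median of that list. The list means of T and NK cells ran from -2.87 to -1.93 in P38α+/- and from -3.17 to -3.08 in P38α-/-, so that the genotypes did not overlap, and those of B cells ran from -4.64 to -2.58 in P38α+/-, with no like value in P38α-/- where 2 of the 4 genes were at the background. Those of monocytes and macrophages ran from -4.05 to -2.69 and from -5.29 to -3.29, and those of plasmacytoid dendritic cells from -3.47 to -2.35 and from -4.46 to -3.38, which overlapped. The megakaryocyte and platelet genes were mixed, with a median of 0.22 over 5 of 8. Of these, 1 read lower without overlap (Pf4, log2 fold change -1.42) and 0 higher. Their list means ran from -2.57 to -2.16 in P38α+/- and from -3.11 to -2.30 in P38α-/-, which overlapped. All 6 arrays detected 5 of the 8 tested monocyte and macrophage genes and 3 of the 7 plasmacytoid dendritic cell genes. They detected 3 of the 4 tested T and NK cell genes and 4 of the 5 tested megakaryocyte and platelet genes. The P38α-/- means and medians of these lists thus rest partly on background readings. The erythroid genes, such as Gata1 and Alas2, were high on every array, with a list mean of 4.58 to 4.98, a median log2 fold change of -0.02 over 12 genes and 0 that read lower without overlap. Limma called 0 genes of these lists, as did the methods' unpaired equal-variance test, although 11 neutrophil genes, 2 genes each of the monocyte and macrophage, B cell and T and NK cell lists, 3 plasmacytoid dendritic cell genes, 1 megakaryocyte and platelet gene and 0 erythroid genes had an unadjusted limma p under 0.05. Counts at that p are given without the share over all tested genes, here and below. They thus do not show whether a list stands out from the array. The methods' test called 2 genes over the whole array (0.0141%), so its 0 in a list says little. In sorted bulk RNA, fewer cells of a type and less RNA per cell cannot be told apart.

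**Figure D2:**
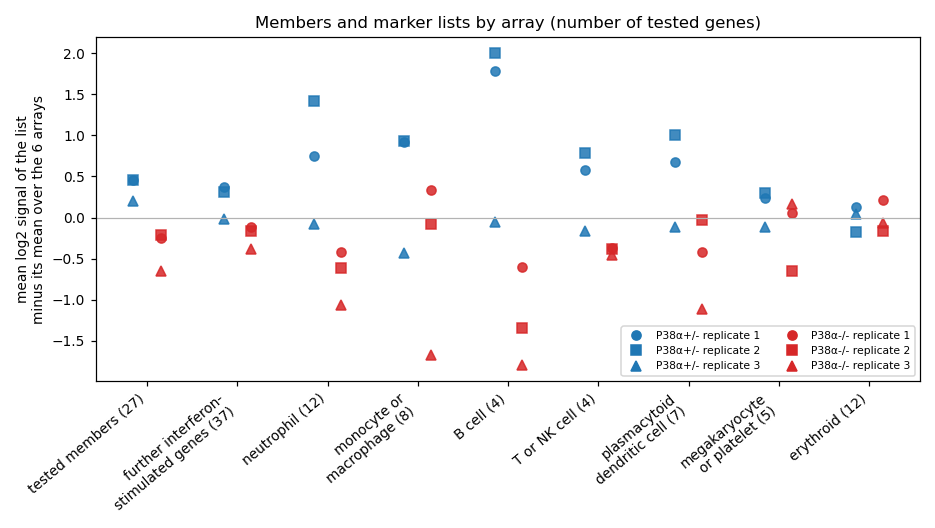
Mean log2 signal of the 27 tested members, of 37 further interferon-stimulated genes and of 7 marker lists on each array, minus the list's mean over the 6 arrays (vertical axis); colour gives the genotype, shape the replicate number, and the number of tested genes stands in brackets. The neutrophil list spreads more between genotypes than the members do, the P38α-/- points of the B cell list include 2 genes at the background, and the erythroid list stays near 0 on all 6 arrays. Outside the neutrophil and erythroid lists, the P38α-/- points include readings of undetected genes.

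The cytoplasmic sensors split by gene, and limma called 0 of the 5 tested, as did the methods' test, although 4 had an unadjusted limma p under 0.05. Ddx58 (RIG-I), a helicase that binds RNA with a free triphosphate, read -4.03, -3.16 and -4.09 in P38α+/- and -5.73, -5.32 and -5.52 in P38α-/-. Dhx58 (LGP2), a related helicase that assists Ifih1, read -3.03, -3.72 and -3.51 against -4.57, -4.80 and -5.47. Both were lower on every P38α-/- array, with log2 fold changes of -1.76 (SE 0.29, limma adjusted p = 0.0715) and -1.52 (SE 0.30, limma adjusted p = 0.0931), and neither was called. Of the P38α-/- arrays, 2 detected Ddx58. P38α-/- replicate 1 did not, and its -5.73 lies below the lowest detected signal of that array, -5.48. The fold of Ddx58 thus rests partly on a background reading. The second, untested Ddx58 probe was detected on 1 P38α-/- array and 0 P38α+/- arrays.

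Ifih1 (MDA5), the helicase that binds long double-stranded RNA such as PolyIC, differed less. It read -1.36, -1.58 and -1.17 in P38α+/- and -1.78, -1.77 and -1.99 in P38α-/-, a log2 fold change of -0.47 (SE 0.17, limma adjusted p = 0.198), which was 0.01 with the 75th percentile over all probes. Eif2ak2 (PKR), a kinase that double-stranded RNA activates to halt translation, read -2.40, -2.64 and -2.18 against -2.93, -3.06 and -3.17, a log2 fold change of -0.65 (SE 0.18, limma adjusted p = 0.143). The groups did not overlap for either gene, and the differences were under 2-fold.

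Trim25, a ubiquitin ligase that activates Ddx58, did not separate the genotypes. Its brighter probe read 2.18, 2.45 and 2.76 in P38α+/- and 2.07, 2.60 and 2.44 in P38α-/- (log2 fold change -0.09, SE 0.22). Its second probe gave 0.08 (SE 0.22), and the first gave 0.39 with the 75th percentile over all probes. Zbp1, a sensor of Z-form nucleic acid, was detected by 2 of 3 P38α+/- arrays and 0 of 3 P38α-/- arrays with either of its probes and was not tested. Its brighter probe by mean level read -5.62, -5.17 and -6.18 in P38α+/- and -6.71, -8.33 and -7.65 in P38α-/-. The P38α-/- level of Zbp1 is known only as a bound, and it was at least 1.49-fold lower by one probe and at least 1.83-fold lower by the other (two-sided exact permutation p = 0.1 for each, the smallest that 3 arrays against 3 allow).

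Limma and the methods' test called 0 of the 4 transcription factors, 0 had an unadjusted limma p under 0.05, and all overlapped between genotypes. Stat2, a subunit of the interferon complex, read -1.07, -1.03 and -0.91 in P38α+/- and -0.83, -0.84 and -0.96 in P38α-/- (log2 fold change 0.13, SE 0.14). Irf9, the DNA-binding subunit of that complex, read 1.03, 0.96 and 1.63 against 1.13, 1.05 and 1.05 (log2 fold change -0.13, SE 0.22). In Irf9 the 3 P38α-/- arrays lay within 0.08 of each other, and P38α+/- replicate 3 stood above the rest. Irf7, which amplifies the interferon genes, read -0.80, -1.07 and -0.87 against -0.84, -1.14 and -1.17 (log2 fold change -0.14, SE 0.17). With the 75th percentile over all probes the log2 fold changes of Irf7 and Irf9 were both 0.35.

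Irf1, which is induced by interferon gamma in particular, had the widest P38α+/- spread of the 4. It read -3.0, -1.84 and -3.53 in P38α+/- and -3.60, -3.52 and -4.07 in P38α-/-, a log2 fold change of -0.94 (SE 0.44, limma adjusted p = 0.279), and the second Irf1 probe was detected on 0 of 6 arrays. P38α+/- replicate 2 was the high array, as it was among the P38α+/- arrays for the mean of every marker list but the erythroid one. Without that array the log2 fold change of Irf1 was -0.47, the smallest in size that leaving out 1 array gave.

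**Figure D3:**
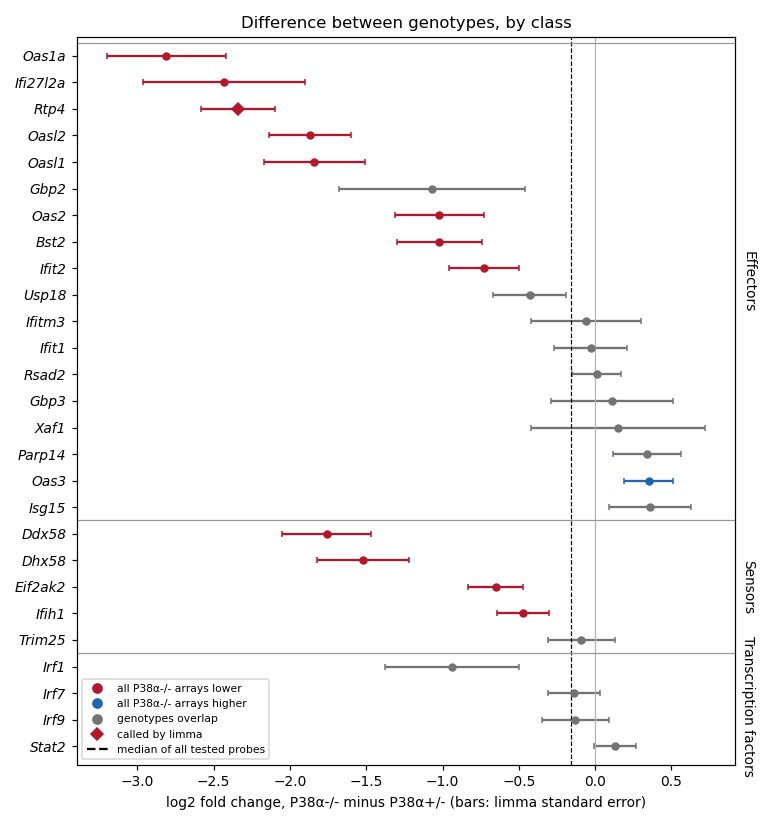
Log2 fold change of each tested member, P38α-/- minus P38α+/- (horizontal axis), with bars of 1 limma standard error, grouped by class; the dashed line is the median of all tested probes, -0.16. Red marks members that read lower on all P38α-/- arrays, blue the 1 that read higher, and the diamond Rtp4, the member that was called.

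The oligoadenylate synthetase (OAS) family held the largest difference among the tested members, that of Oas1a, and its 5 members did not go the same way. These enzymes make short adenylate chains on double-stranded RNA that switch on the RNase L nuclease, and the Oasl proteins are close relatives of them. The brighter Oas1a probe (chr5:121346735-121346794, mm9) read -1.46, -1.51 and -1.98 in P38α+/- and -4.00, -4.03 and -5.34 in P38α-/-. This was a log2 fold change of -2.81 (SE 0.39, limma adjusted p = 0.0683), or 6.99-fold, and the dimmer Oas1a probe gave -2.70 (SE 0.35, limma adjusted p = 0.0660) and was detected on 1 of 3 P38α-/- arrays. By both probes every P38α+/- value was over 2-fold above every P38α-/- value. Oas1a has near-identical neighbouring copies in the mouse, and cross-hybridisation between them was not tested.

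Oasl2 read -1.28, -1.34 and -1.99 in P38α+/- and -3.08, -3.39 and -3.75 in P38α-/-, a log2 fold change of -1.87 (SE 0.27, limma adjusted p = 0.0683). With replicate numbers as a block its standard error was 0.13 and its limma adjusted p 0.0482, so that Oasl2 and Rtp4 were called in the paired analysis. Oasl1 read -0.87, -1.59 and -1.89 against -3.06, -3.06 and -3.74, a log2 fold change of -1.84 (SE 0.33, limma adjusted p = 0.0835). The pairs of Oasl2 differed by -1.80, -2.05 and -1.76 and those of Oasl1 by -2.19, -1.47 and -1.85.

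Oas2 and Oas3 lie beside each other on chromosome 5, between 121180343 and 121203657 of mm9, and read in opposite directions. Oas2 read -2.87, -2.62 and -2.47 in P38α+/- and -3.56, -3.21 and -4.25 in P38α-/- (log2 fold change -1.02, SE 0.29, limma adjusted p = 0.148). Oas3 read -0.58, -0.53 and -0.24 against -0.13, -0.13 and -0.06 (log2 fold change 0.35, SE 0.16, limma adjusted p = 0.269), and was the member whose P38α-/- arrays all lay above its P38α+/- arrays. Oas3 stayed above 0 under all the alternatives, from 0.29 to 0.83, though its genotypes overlapped in the authors' normalized values, and Oas2 below 0, from -1.41 to -0.54. Of the family, Oas1a and Oas3 have the GAAANNGAAA core in the promoters printed above, and the promoters of Oasl1 and Oasl2 hold no match.

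Rtp4, a membrane chaperone that interferon induces strongly, was the called member. Its probe (chr16:23613668-23613727, mm9) read -3.23, -3.10 and -3.41 in P38α+/- and -5.77, -5.10 and -5.86 in P38α-/-. The log2 fold change was -2.34 (SE 0.24, limma adjusted p = 0.0389), or 5.05-fold lower. Rtp4 was tested because all 3 P38α+/- arrays detected it, while 2 of 3 P38α-/- arrays did. P38α-/- replicate 1 did not, and its -5.77 lies below the lowest detected signal of that array, -5.48. The fold and its test thus rest partly on a background reading. The filter for detection on all 6 arrays leaves Rtp4 out. The call was lost in 11 of the 15 alternatives that held it, and the limma adjusted p ran from 0.00210 to 0.721. Among the 11 were those without P38α+/- replicate 1 or 2 or without any 1 of the P38α-/- replicates. Dropping the detection filter and taking the slide as a block also lost it. All of these called 0 genes over the whole array. The rest of the 11 called from 2 genes (0.0141%) to 15 genes (0.106%). The log2 fold change of Rtp4 was negative in all 15, from -2.57 to -1.09.

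Ifi27l2a, a small interferon-induced membrane protein of mitochondria, had a large difference and a wide spread. It read -1.94, -0.89 and -2.70 in P38α+/- and -3.74, -4.08 and -5.01 in P38α-/-, a log2 fold change of -2.43 (SE 0.53, limma adjusted p = 0.105). Bst2 (tetherin), which holds budding virus at the cell surface and is also a plasmacytoid dendritic cell marker, read -1.27, -1.22 and -1.88 against -2.17, -2.35 and -2.92 (log2 fold change -1.02, SE 0.28, limma adjusted p = 0.141). The median log2 fold change of the 7 genes of that marker list, -1.02, is the value of Bst2 itself. Bst2 is also among the 3 genes of the list that read lower without overlap, against 19.6% of all tested genes.

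**Figure D4:**
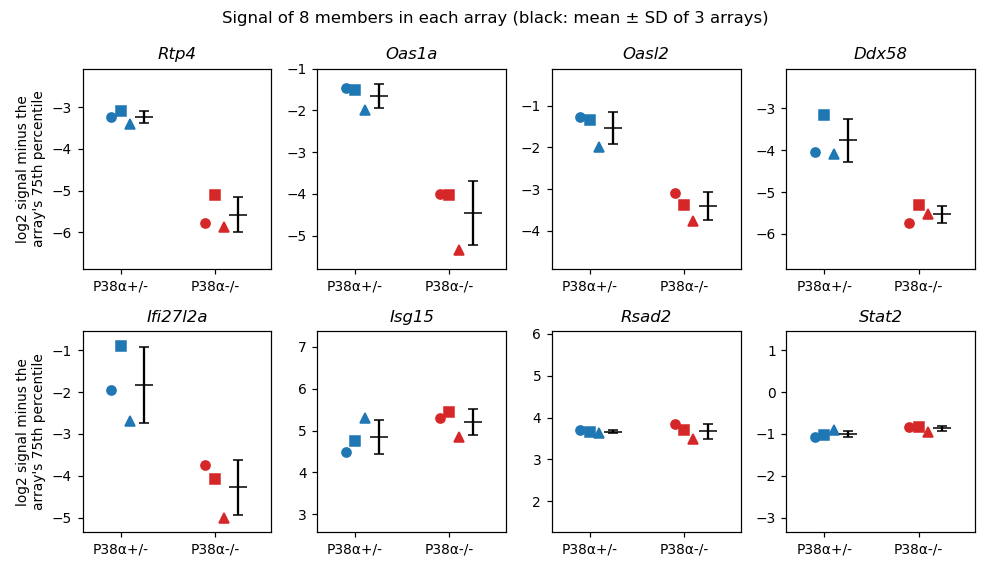
Log2 signal minus the array's 75th percentile (vertical axis) for 8 members chosen after their values were seen, with circles, squares and triangles for replicates 1, 2 and 3 and black bars for the mean ± SD of 3 arrays. Rtp4, Oas1a, Oasl2, Ddx58 and Ifi27l2a show a gap between genotypes, and Isg15, Rsad2 and Stat2, on axes of the same span, show none.

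The IFIT proteins, which bind viral RNA lacking the host's cap methylation, were tested for 2 of 3 genes. Ifit2 read -4.64, -4.45 and -5.14 in P38α+/- and -5.29, -5.46 and -5.68 in P38α-/-, a log2 fold change of -0.73 (SE 0.23, limma adjusted p = 0.159) that was 0.08 after quantile normalization and 0.13 in the authors' normalized values. Ifit1 read -4.02, -4.40 and -4.50 against -4.13, -4.14 and -4.74 (log2 fold change -0.03, SE 0.24), with mixed genotypes. Ifit3 read -6.40, -6.51 and -7.99 against -7.78, -8.29 and -8.81, not well above background on all 6 arrays, and was not tested.

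Isg15 and Rsad2 were detected on all 6 arrays and did not separate the genotypes. Isg15, a ubiquitin-like protein that is joined to newly made proteins, read 4.49, 4.75 and 5.29 in P38α+/- and 5.31, 5.45 and 4.85 in P38α-/- (log2 fold change 0.36, SE 0.27). Its second probe gave 0.35 (SE 0.27). Within the pairs Isg15 differed by 0.83 and 0.70 in replicates 1 and 2 and by -0.44 in replicate 3. Usp18, the protease that removes Isg15 and damps the receptor, read -1.87, -1.81 and -1.13 against -1.84, -2.06 and -2.21 (log2 fold change -0.43, SE 0.24), and 0.05 with the 75th percentile over all probes. Rsad2 (viperin), an enzyme that makes a chain-terminating nucleotide, read 3.71, 3.65 and 3.62 against 3.84, 3.70 and 3.48 (log2 fold change 0.01, SE 0.16). Rsad2 varied least in P38α+/-, with an SD of 0.04.

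Of the 4 guanylate-binding and Mx GTPases, which act on invading microbes and viruses, 2 were tested and both overlapped. Gbp2 read -4.58, -5.17 and -5.93 in P38α+/- and -7.54, -5.42 and -5.93 in P38α-/- (log2 fold change -1.07, SE 0.61, limma adjusted p = 0.361). P38α-/- replicate 1 was the lowest array and did not detect Gbp2, and without it the log2 fold change was -0.42. Gbp3 read -4.53, -5.08 and -5.93 against -4.83, -4.80 and -5.59 (log2 fold change 0.11, SE 0.40, and -0.27 without P38α+/- replicate 3). Mx1 and Mx2 were each detected on 1 P38α+/- array and 0 P38α-/- arrays and were not tested. Mx1 read -8.05, -6.01 and -7.64 against -7.74, -8.89 and -8.76, and Mx2 read -4.29, -7.12 and -8.34 against -7.28, -8.44 and -8.57. The genotypes overlapped for both. Ifi44, which has no settled function, was detected on P38α+/- replicate 1 alone and was not tested. It read -3.80, -6.75 and -6.81 against -6.57, -7.61 and -7.51, and the genotypes overlapped (two-sided exact permutation p = 0.3).

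The 3 remaining effectors mixed the genotypes. Ifitm3, which blocks virus entry at endosomes, read -0.15, -0.48 and -1.02 in P38α+/- and 0.05, -0.97 and -0.92 in P38α-/- (log2 fold change -0.06, SE 0.36, and 0.42 with the 75th percentile over all probes). Parp14, an ADP-ribosyltransferase, read -1.50, -1.51 and -0.89 against -1.10, -0.96 and -0.81 (log2 fold change 0.34, SE 0.22). Xaf1, a promoter of apoptosis, read -1.46, -1.61 and -3.23 against -1.38, -1.71 and -2.75 (log2 fold change 0.15, SE 0.57). In Xaf1 both replicates 3 stood over 2-fold below the other arrays of their genotype, so the pairs differed by only 0.08, -0.10 and 0.48, and with replicate numbers as a block its standard error was 0.16.

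**Figure D5:**
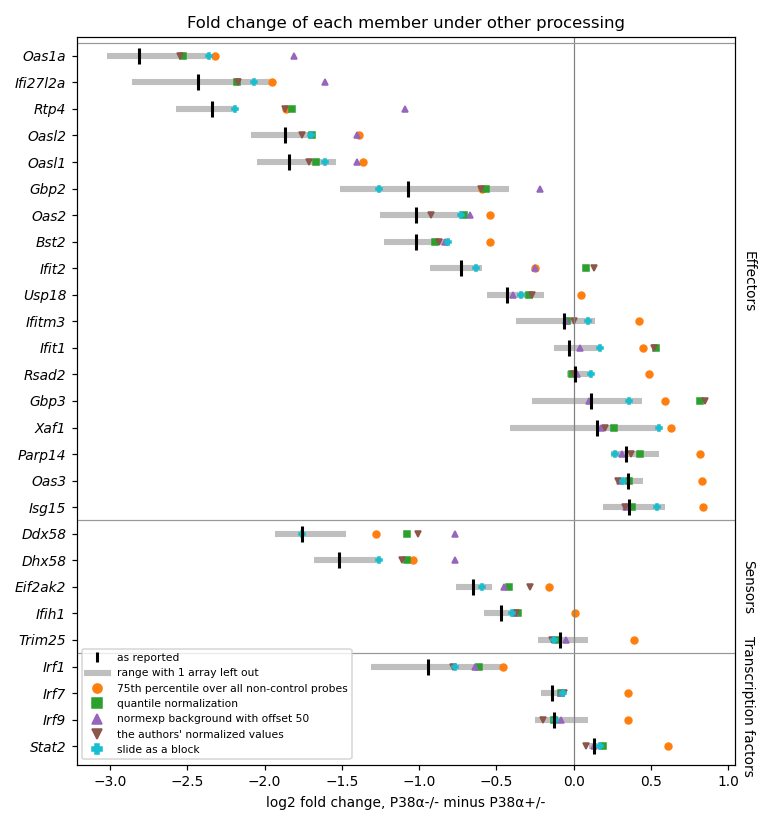
Log2 fold change of each tested member as reported (black bar), over the 6 values with 1 array left out (grey band) and under 5 other ways of processing (symbols), P38α-/- minus P38α+/- on the horizontal axis. With the 75th percentile over all probes every member moves to the right, and the OAS genes other than Oas3, Rtp4, Ifi27l2a, Ddx58 and Dhx58 stay below 0 under all the settings drawn.

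By class, 8 of 18 tested effectors, 4 of 5 sensors and 0 of 4 transcription factors read lower without overlap, against 19.6% of all tested genes. Among these, the effector Rtp4 and the sensor Ddx58 passed the filter through P38α+/- alone, as 2 of 3 P38α-/- arrays detected each. All 4 transcription factors were detected on all 6 arrays. The median log2 fold changes of effectors, sensors and transcription factors were -0.58, -0.65 and -0.13. The difference between classes was not tested, and 4 and 5 genes are few to set against that share. The GAAANNGAAA core did not follow these groups. Of the 12 members lower without overlap, 5 had the core, 3 had a promoter in the table without it (Ifit2, Oasl1 and Oasl2) and 4 had no promoter in the table. Of the 14 that overlapped, 7 had it, 5 did not and 2 had no promoter in the table.

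The genes upstream of the members gave 0 calls by limma and by the methods' test. Of 9 interferon genes, 8 were on the array, and only Ifnl3 was tested, with a log2 fold change of 0.92 (SE 0.74) and overlapping genotypes. Ifnb1, an early interferon of the antiviral response, was detected on 0 of 6 arrays. All 9 receptor chains and receptor kinases listed were tested, with a median log2 fold change of 0.15 and 4 at an unadjusted limma p under 0.05. Of the 9, 2 read lower and 3 higher without overlap, against 19.6% and 7.44% of all tested genes. Ifnar1 was among the higher, at -1.14, -1.09 and -1.09 in P38α+/- and -0.40, -0.59 and -0.65 in P38α-/- (log2 fold change 0.56, SE 0.15, limma adjusted p = 0.132). Its partner Ifnar2 overlapped (log2 fold change -0.13, SE 0.16), as did the kinases Jak1 (0.15, SE 0.16) and Tyk2 (0.62, SE 0.28).

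Of 19 signalling genes of the pathway, 16 were tested, with a median log2 fold change of -0.15 and 5 at an unadjusted limma p under 0.05. Of the 16, 2 read lower and 2 higher without overlap, against 19.6% and 7.44% of all tested genes. Mavs, the mitochondrial adaptor of Ddx58 and Ifih1, read -0.55, -0.56 and -0.30 in P38α+/- and 0.32, 0.43 and 0.53 in P38α-/-, a log2 fold change of 0.90 (SE 0.15, limma adjusted p = 0.0806). The groups of Mavs did not overlap, and it was not called, while Ddx58 and Ifih1 read lower on the same arrays. Irf3, the factor that Mavs activates, overlapped (log2 fold change 0.26, SE 0.20). Tlr3 was detected on 0 of 6 arrays.

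A further list of 50 interferon-stimulated genes, none of them a member, was read in the same way. Of these, 37 were tested, 11 read lower and 3 higher without overlap, limma and the methods' test called 0, 14 had an unadjusted limma p under 0.05, and the median log2 fold change was -0.33. The 11 of 37 and the 12 of 27 members stand beside the 19.6% of all tested genes, and the 3 that read higher beside 7.44%. Of the 37, 29 were detected on all 6 arrays. Some of the 11 passed the filter through P38α+/- alone, with detection on 0 to 2 P38α-/- arrays. Such a filter favours genes that read lower in P38α-/-, and the 19.6% was counted under the same filter.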

How the data were processed

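Microarray data of 6 mice, 3 P38α+/- and 3 P38α-/- by the sample labels, were analysed. The authors deposited, for each array, the spot intensity written by Agilent Feature Extraction 10.7.3.1, background-subtracted within the array and not normalized between arrays, and a table of normalized intensity values whose steps are not given in the sources used here. Probe names and positions (mm9) are those of the array files. The members, gene lists and tests were chosen with earlier results of these data known.

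Control and outlier spots were left out, spots of a probe averaged, and log2 signals scaled to the array's 75th percentile of the probes that all 6 arrays detected. Genotypes were compared with limma 3.58.1 in R 4.3.3 (two-sided, Benjamini-Hochberg adjustment over 18769 probes), tested on simulated data. Each gene is given by its brightest tested probe, and other probes where they were untested or differed. Every member is named with its values. Of the other lists, Ifnar1, Ifnar2, Jak1, Tyk2, Irf3, Mavs and Tlr3 are named whatever their values (1 further gene of that rule is not reported here), and Ifnl3, Ifnb1 and the marker genes named were picked after values were seen. Promoter letters are from RefSeq. A bound sets the mean of the brighter genotype against, per array of the dimmer one, the higher of its lowest signal well above background and the probe's own.

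The number of arrays, 3 per genotype, limits the precision, and the mice of a genotype are separate animals. The replicate numbers were taken to pair the mice: arrays sharing a number had deviations with correlations of 0.538, 0.312 and 0.423, other arrays -0.476 to 0.183, and the study's description speaks of pairs. These are deviations from the mean of 3 arrays, so correlations at unlike numbers fall where those at like numbers rise. The low values are thus not separate evidence of pairing. The unpaired fit is reported, after the methods, beside a fit with the number as a block. A slide block leaves out P38α-/- replicate 3, which had a slide to itself. Alternatives were other scalings, background correction, filters, the authors' values, blocks, array weights, the methods' unpaired equal-variance test and each array left out. In the authors' table, P38α-/- replicate 2 matched its scanner signal less well (Spearman correlation 0.898) than the other 5 (1.00).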

Additional observations from a re-analysis of the deposited data

How the results depend on the processing

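The 3 arrays per genotype and the dim signal of many members set the limits. Of the 32 members, 5 were not tested, and Rtp4, Ddx58 and Gbp2 were not well above background on 1 P38α-/- array each. As reported, Rtp4 alone was called. With the 75th percentile over all probes 6 members were called (5 effectors, 1 sensor), 7 read lower (4.82% of all genes) and 2 higher (26.2%) without overlap, the medians were 0.01 for the members, -0.16 for sensors, -0.10 for effectors and 0.35 for transcription factors, and Ifih1 (0.01), Ifit1 (0.45), Ifitm3 (0.42), Irf7 (0.35), Irf9 (0.35), Trim25 (0.39) and Usp18 (0.05) turned positive. Over the whole array this setting called 736 genes (5.2%), 408 higher, against 27 (0.191%) with 21 higher. Array weights called 10 members (7 effectors, 2 sensors, 1 transcription factor) among 1686 genes (11.9% of all) and turned Gbp3 (-0.23), Rsad2 (-0.11) and Xaf1 (-0.55). The strict filter called 2 effectors (0.633% of all genes), with an effector median of -0.25, and in the paired analysis the replicate block called 2, Oasl2 and Rtp4 (0.445%). It changed no other call.

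No filter, the slide block, the methods' unpaired test, quantile normalization, normexp and the authors' values called 0 members and so 0 effectors. Over the whole array, no filter and the slide block called 0 genes and the methods' test 2 (0.0141%). Quantile normalization called 15 (0.106%), normexp 12 (0.0848%) and the authors' values 11 (0.0777%). With so few calls, 0 members says little about the members. Quantile normalization gave medians of -0.42 for sensors and -0.16 for effectors, 9 members lower (9.24% of all genes) and 2 higher (13.7%) without overlap, and Ifit1 (0.53), Ifit2 (0.08) and Rsad2 (-0.01) turned. Normexp gave medians of -0.25 for members, -0.45 for sensors and -0.23 for effectors, and Ifit1 was 0.04. The authors' values gave -0.27, -0.37 and -0.13, with 9 members lower (9.74%) and 0 higher (15%) without overlap, and Ifit1 (0.52), Ifit2 (0.13) and Ifitm3 (0.00) turned. Under the slide block Ifit1 was 0.17 and Ifitm3 0.09.

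With 1 array left out, 0 to 4 members (0 to 3 effectors, 0 to 1 sensors) were called, the sensor median ran from -0.76 to -0.53, and 1 to 5 members (8.59% to 14.3% of all genes) read higher without overlap. The 4 calls came without P38α+/- replicate 3, where 298 genes (1.98%) were called, and were Oas1a, Oasl2, Rtp4 and Zbp1, the last against P38α-/- values at the background. Leaving out any other array called 0 genes over the whole array. Values ran from -0.27 to 0.44 for Gbp3, -0.13 to 0.18 for Ifit1, -0.37 to 0.14 for Ifitm3, -0.25 to 0.09 for Irf9, -0.04 to 0.12 for Rsad2, -0.23 to 0.09 for Trim25 and -0.41 to 0.56 for Xaf1. The causes were not tested. The overlap counts under other settings were chosen after seeing the data.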
